A study of Mus musculus with 40 samples.

Results

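The members of cytochrome P450 families 1 to 3 were followed in liver from mice that lack Nampt in hepatocytes (HNKO) and from WT littermates. Members were the genes of the deposited count table whose symbols are Cyp followed by family 1, 2, or 3, a subfamily letter, and a number, with at least 10 counts in at least 3 of the 38 libraries used. Of the 55487 genes in the table, 58 carried such a symbol, and 48 of them, in 15 subfamilies, passed the count rule. The other 10 were Cyp2b19, Cyp2b23, Cyp2c65, Cyp2c66, Cyp2d34, Cyp2j7, Cyp2j11, Cyp2j12, Cyp2j13, and Cyp2w1, of which Cyp2c66 had 0 counts in every library used. All 48 members entered the test, so the filter on low counts removed none of them. Family 1 had 3 members (Cyp1a1, Cyp1a2, and Cyp1b1), family 3 had the 7 members of subfamily 3a, and family 2 had the other 38, of which 13 belonged to subfamily 2c and 7 to 2d.

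P450 enzymes of families 1 to 3 are heme proteins of the endoplasmic reticulum that take electrons from NADPH through P450 oxidoreductase and insert an oxygen atom into their substrates. In liver they oxidize drugs, environmental chemicals, steroids, retinoids, bile acids, and polyunsaturated fatty acids, and several are expressed mainly in the hepatocytes around the central vein. Their transcription is known to be set by the receptors AHR, CAR, and PXR, by liver regulators such as HNF4A and CEBPA, and, for the genes that differ between the sexes, by the pattern of growth hormone.

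HNKO mice were Nampt fl/fl with 1 Alb-Cre allele, so that the gene for the NAD+ salvage enzyme NAMPT was recombined where the albumin promoter is active, in hepatocytes, while the other cells of the liver kept it. WT mice were floxed littermates without Cre. All mice were females 9 weeks old at the start, came from a fortified breeding chow, and ate a purified control diet (PD) before the liver was taken. The lengths of PD feeding were 3, 6, 12, and 21 days, which the sample labels enter as an age. In the order of the days, the WT groups had 5, 4, 5, and 5 libraries and the HNKO groups 5, 5, 6, and 3. Left out were 2 HNKO libraries of day 21 (17 and 18) described as Failed QC. Each library came from 1 mouse, and total counts per library ranged from 16151037 to 64181492 (median 26466478.5). Levels are given as CPM, a gene's counts relative to the TMM-scaled total of the library, and levels are compared between genes as CPM per kilobase of exon. Nampt, the check of the labels, was at 73.9 ± 14.2 CPM in WT and 38.8 ± 2.65 CPM in HNKO livers at day 3. Its log2 fold change, HNKO minus WT, was -0.93, -0.90, -0.82, and -0.69 at days 3, 6, 12, and 21 (adjusted p = 0.0193, 0.0128, 0.0208, and 0.161). The hepatocyte markers identified the tissue as liver, with 100306 to 156326 CPM for the sum of 7 genes in WT livers.

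In WT liver the 48 members held 1.35% to 2.59% of all counts (median 1.72%). Cyp2e1, which oxidizes ethanol and other small molecules, was the most abundant per length at 2707 CPM per kilobase, and took 23.9% to 39.5% of the members' summed level. Cyp2d26 followed at 531, Cyp2a4 at 421, Cyp2b9 at 405, and Cyp2c70 at 331 CPM per kilobase. The leading members of the other subfamilies were Cyp2j5 at 274, Cyp3a25 at 239.6, Cyp2f2 at 195, Cyp1a2 at 166, Cyp2r1 at 6.55, Cyp2u1 at 3.27, and Cyp2g1 at 2.06 CPM per kilobase. At the low end, Cyp2t4, Cyp1b1, and Cyp2s1, each the one member of its subfamily, stood at 0.276, 0.167, and 0.0953 CPM per kilobase. The members thus spanned the range from 21 genes over 100 CPM per kilobase to 9 genes under 1 CPM per kilobase.

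To find which P450 genes differed between HNKO and WT livers, the 2 genotypes were compared at each day with edgeR, and a gene was called when its adjusted p over all 20297 tested genes was under 0.05. The members called were mostly lower in HNKO livers at every day. A call always means this fit unless another tool is named, and DESeq2 made 15 calls at single days beyond it, 12 of them lower, in 12 members. At day 3, 5 members were called lower (Cyp2b13, Cyp2c39, Cyp2c40, Cyp2c70, and Cyp3a44) and 1 higher (Cyp2u1). These were 10.4% and 2.08% of the members, where 1.71% of all tested genes were called lower and 2.95% higher. At day 6, 8 were called lower (Cyp1a2, Cyp2b9, Cyp2c29, Cyp2c37, Cyp2c39, Cyp2d22, Cyp2d26, and Cyp2j6) and 0 higher by edgeR (16.7% lower, against 4.37% lower and 8.42% higher of all genes). For that day DESeq2 called 1 higher, Cyp1b1, and the unadjusted p was under 0.05 for Cyp1b1 alone among the members above 0. At day 12, 5 were called lower (Cyp2a4, Cyp2c29, Cyp2c39, Cyp2c70, and Cyp3a44) and 1 higher, Cyp3a11, beside 3.27% and 4.56% of all genes. At day 21, 4 were called lower (Cyp2c29, Cyp2d26, Cyp3a25, and Cyp3a59) and 1 higher, Cyp1b1, beside 0.916% and 2.21%. In all, 18 of the 48 members were called on at least 1 day, 3 of them on 2 days (Cyp2c70, Cyp2d26, and Cyp3a44), 2 on 3 days (Cyp2c29 and Cyp2c39), and none on 4. The share of all tested genes called on at least 1 day, or on several days, was not counted.

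The direction was shared well beyond the called genes. The log2 fold change was below 0 for 42, 44, 35, and 37 of the 48 members at days 3, 6, 12, and 21, and for 31 of them at all 4 days. The median log2 fold change of the members was -0.54, -0.59, -0.30, and -0.40 at the same days, where the median of all tested genes was 0.013, -0.014, 0.00210, and -0.013. Cyp1b1, Cyp2s1, and Cyp2u1 were the 3 members above 0 at all 4 days. In the mean of the 4 daily differences, 29 members were called lower and 2 higher (Cyp1b1 and Cyp2u1), or 60.4% and 4.17% of the members, against 17.3% and 19.2% of all genes. Of the 21 members over 100 CPM per kilobase, 16 were called lower in that mean and none higher, and of the 9 under 1 CPM per kilobase, 2 were called lower and 1 higher. The standard errors differed between these levels, with a median of 0.14 on the log2 scale for the first and 0.27 for the second.

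**Figure D1:**
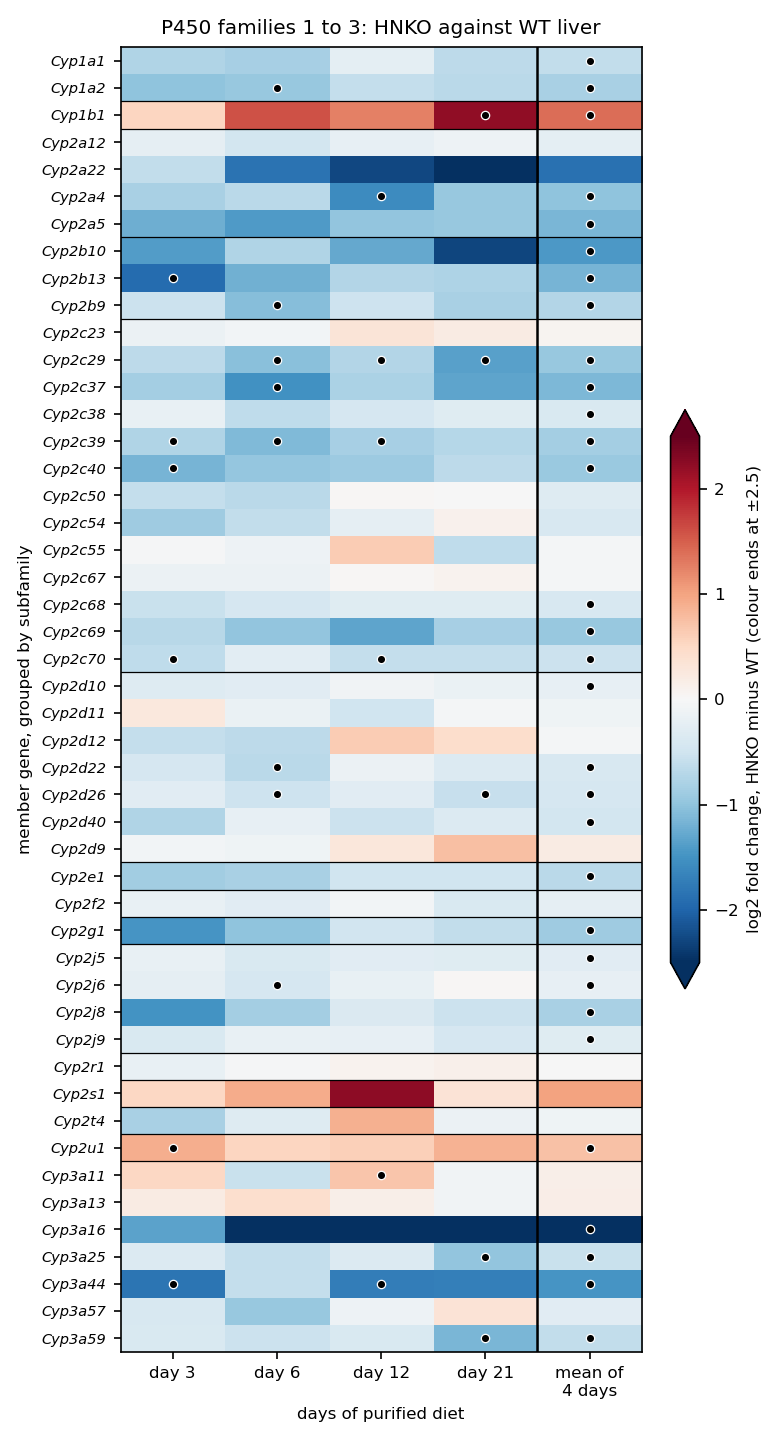
Log2 fold change, HNKO minus WT, of each of the 48 members (rows, grouped by subfamily) at days 3, 6, 12, and 21 and in the mean of the 4 days (columns); blue is lower and red higher in HNKO livers, and a black dot marks an adjusted p under 0.05. Most cells are blue, 31 rows are below 0 at all 4 days, and the dots lie on Cyp2c29 and Cyp2c39 at 3 days.

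**Figure D2:**
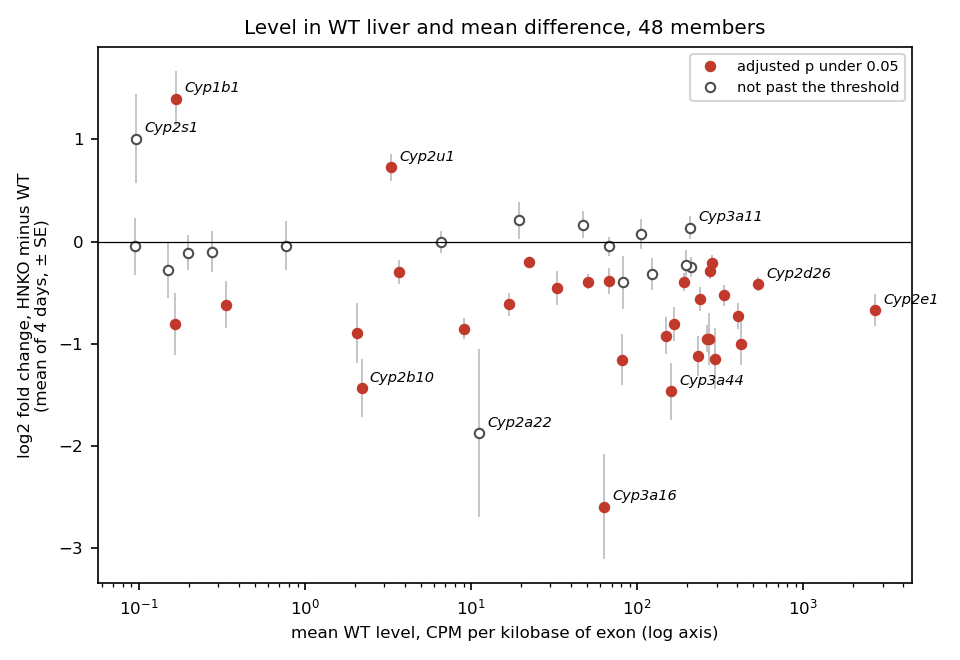
Mean WT level in CPM per kilobase of exon (log axis) against the mean of the 4 daily log2 fold changes, HNKO minus WT, with its SE, 1 point per member; filled points have an adjusted p under 0.05. Cyp2e1 lies at 2707 CPM per kilobase and -0.67, Cyp3a16 has the lowest value (-2.59), and Cyp1b1 and Cyp2u1 are the filled points above 0.

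The libraries themselves were also compared, by counting the members whose HNKO and WT values did not overlap. At day 3 only Cyp2c40 had every HNKO library below every WT library, which 1.8% of all tested genes also had, and no member had every HNKO library higher (2.31% of all genes). At day 6 the count was 7 lower (Cyp2b9, Cyp2c29, Cyp2c37, Cyp2c39, Cyp2d22, Cyp2d26, and Cyp3a25) and 0 higher, against 4.68% and 8.08% of all genes. At day 12 it was 4 lower (Cyp2b9, Cyp2c39, Cyp2c40, and Cyp2d26) and 1 higher (Cyp3a11), against 2.14% and 2.65%. At day 21, where 3 HNKO libraries remained, it was 12 lower and 3 higher (Cyp1b1, Cyp2d9, and Cyp2u1), against 6.7% and 7.25%. The 12 were Cyp1a2, Cyp2b9, Cyp2c29, Cyp2c37, Cyp2c39, Cyp2c40, Cyp2d22, Cyp2d26, Cyp3a16, Cyp3a25, Cyp3a44, and Cyp3a59. Cyp2b9, Cyp2c39, and Cyp2d26 were therefore separated between the genotypes at days 6, 12, and 21, and Cyp2c40 at days 3, 12, and 21.

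The summed level of the 48 members was lower in HNKO livers in the mean at each day, with overlap between libraries at days 3 and 12. It was 19357 ± 4203 CPM (SD, n = 5) in WT and 13210.5 ± 3549 CPM (SD, n = 5) in HNKO livers at day 3. It was 19376 ± 4528 CPM (SD, n = 4) in WT and 11969.7 ± 3191 CPM (SD, n = 5) in HNKO livers at day 6. The next sums were 17157 ± 3038 CPM (SD, n = 5) in WT and 12719 ± 2093 CPM (SD, n = 6) in HNKO livers at day 12. The last were 17469.6 ± 1363 CPM (SD, n = 5) in WT and 12039.5 ± 3281 CPM (SD, n = 3) in HNKO livers at day 21. At day 6 the highest HNKO library (15122 CPM) lay below the lowest WT library (15462 CPM), and at day 21 the same held (14716 against 15973 CPM). As a share of all counts the members held 0.761% to 1.76% in HNKO livers (median 1.19%). Cyp2e1 made up a median of 28.7% of the sum in HNKO and 31.4% in WT livers, and without it the sum was 13262 ± 2052 CPM in WT and 8481 ± 2121 CPM in HNKO livers at day 6. In whole liver RNA, fewer hepatocytes and less P450 RNA per hepatocyte cannot be told apart.

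**Figure D3:**
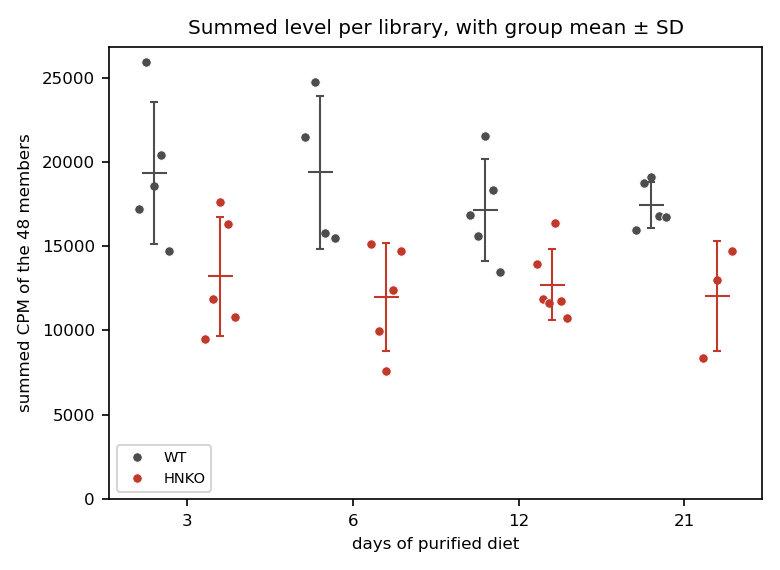
Summed CPM of the 48 members in each library (points) by days of PD and genotype, with the group mean and SD. The HNKO means lie between 11969.7 and 13210.5 CPM and the WT means between 17157 and 19376 CPM, and the groups do not overlap at days 6 and 21.

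Marker genes of other cell types moved with the genotype beside the P450 genes, and their part in the P450 differences was not tested. In the mean of the 4 days, where 19.2% of all genes were called higher and 17.3% lower, all 5 cholangiocyte markers were called higher (Krt7, Krt19, Epcam, Sox9, and Spp1), and their summed level was 34.02 to 48.6 CPM in the WT and 105 to 751 CPM in the HNKO libraries. Of the 6 stellate cell and fibroblast markers, 5 were called higher (Col1a1, Col1a2, Col3a1, Acta2, and Des; 109.9 to 238 CPM in WT and 99.04 to 1020.5 CPM in HNKO libraries). Of the 6 macrophage markers, 4 were called higher (Cd68, Lyz2, Cd5l, and Csf1r; 291 to 716 CPM and 379.6 to 1049.6 CPM), as were all 3 neutrophil markers (S100a8, S100a9, and Retnlg; 0.478 to 2.32 CPM and 0.609 to 23.3 CPM). Of the endothelial markers, 1 of 5 was called lower (Kdr), and of the lymphocyte markers none of 5 was called by edgeR (449.9 to 584 CPM and 446 to 563 CPM for the first, 2.09 to 20.3 CPM and 3.09 to 5.87 CPM for the second), although Ms4a1 was called lower at day 3 (log2 fold change = -1.68 ± 0.44 (SE), adjusted p = 0.0252). The lymphocyte sum of day 3 had a median of 4.15 CPM and a maximum of 20.3 CPM in WT livers, against 3.61 to 4.07 CPM in HNKO livers. Retnlg was at 0 in at least 1 library. The hepatocyte markers summed to 69888 to 133324 CPM in the HNKO libraries, and 3 of 7 were called lower (Alb, Ttr, and Asgr1), with a median log2 fold change of -0.26 beside -0.40 for the P450 members.

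Family 1 holds the classical targets of the aryl hydrocarbon receptor. Cyp1a2, which oxidizes caffeine and aromatic amines, was at 345 ± 142 CPM (SD, n = 4) in WT and 178 ± 87.6 CPM (SD, n = 5) in HNKO livers at day 6, and was called lower there (log2 fold change = -0.96 ± 0.33 (SE), adjusted p = 0.0470). Its log2 fold change ranged over -0.998 to -0.59 on the 4 days, and their mean was called too (-0.81 ± 0.16, SE, adjusted p = 0.000189). Cyp1a1, scarce in these livers at 0.333 CPM per kilobase in WT, was called lower in the mean only (log2 fold change = -0.62 ± 0.23 (SE), adjusted p = 0.0315), a call lost without any one of 5 of the 38 libraries (adjusted p up to 0.0623). Cyp1b1, which is expressed largely outside hepatocytes, went the other way, at 0.594 ± 0.320 CPM (SD, n = 5) in WT and 2.71 ± 1.91 CPM (SD, n = 3) in HNKO livers at day 21 (log2 fold change = 2.22 ± 0.58 (SE), adjusted p = 0.0283). Of the other genes of the list of AHR-responsive genes, Nqo1, Tiparp, and Ahrr were not called by edgeR at any day or in the mean. The list as a whole, with these 3 P450 genes among its 6, had 2 genes called lower and 1 higher in the mean of the 4 days (17.3% and 19.2% of all genes), with a median log2 fold change of 0.059. The Cyp1a2 call of day 6 was lost without any one of WT libraries 8, 10, 27 or HNKO libraries 7, 29, 30, all of that day (adjusted p = 0.0547 to 0.257). It was also lost without any one of 16 of the 29 libraries of other days (libraries 1, 3, 5, 11, 13, 14, 15, 19, 20, 21, 33, 35, 37, 38, 40, 41), with an adjusted p of at most 0.0572. The Cyp1b1 call of day 21 was lost without any one of WT libraries 19, 21, 41 or HNKO library 37, all of that day (adjusted p = 0.0695 to 0.525).

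Subfamily 2a includes the steroid 15-alpha-hydroxylase Cyp2a4 and the coumarin 7-hydroxylase Cyp2a5, neighbours of each other in sequence. At day 3, Cyp2a4 was at 488, 584, 615, 670.3, and 764 CPM in WT livers and 255, 259, 302, 368, and 596 CPM in HNKO livers. At day 6 it was at 452, 468, 816, and 1170.0 CPM in WT livers and 134, 341, 525, 544, and 731 CPM in HNKO livers. Its HNKO libraries lay in the lower part of the WT range or below it at both days, and 1 of 5 (library 4) and 3 of 5 (libraries 6, 30, and 31) lay within that range. At day 12 Cyp2a4 was at 216, 681, 1047, 1095, and 1159 CPM in WT livers and 159 to 439.6 CPM (median 276) in the 6 HNKO livers. At day 21 it was at 349, 625.2, 645, 687, and 1374 CPM in WT livers and 189.7, 446, and 508 CPM in HNKO livers. WT library 33, at 216 CPM, stood apart from the other 4 WT livers of day 12, all of which were above all 6 HNKO livers. The day 12 difference was called (log2 fold change = -1.57 ± 0.38 (SE), adjusted p = 0.0109) and stayed past the threshold without each single library. In the mean of the 4 days Cyp2a4 and Cyp2a5 were both called lower (-1.001 ± 0.21 and -1.14 ± 0.30, SE). They share sequence, with 37.9% and 36.2% of their 51-base stretches also present in transcripts elsewhere, mostly each other's. How reads from such stretches were counted was not examined. Cyp2a12, a steroid 7-alpha-hydroxylase, had -0.25 ± 0.10 (SE) with an adjusted p of 0.0506, and was called by DESeq2 (adjusted p = 0.0400).

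Subfamily 2b holds Cyp2b10, the textbook target of CAR and of phenobarbital, and Cyp2b9 and Cyp2b13, which are known for higher expression in females. Cyp2b9, the most abundant of the 3 at 405 CPM per kilobase, was at 738 ± 119.6 CPM (SD, n = 4) in WT and 352 ± 122 CPM (SD, n = 5) in HNKO livers at day 6, where it was called lower (log2 fold change = -1.07 ± 0.25 (SE), adjusted p = 0.00435), a call that held without each single library. Cyp2b13 was at 146 ± 70.6 CPM (SD, n = 5) in WT and 38.3 ± 25.7 CPM (SD, n = 5) in HNKO livers at day 3, where it was called lower (log2 fold change = -1.92 ± 0.48 (SE), adjusted p = 0.0193). Cyp2b10 was low in WT liver at 2.19 CPM per kilobase, was not called by edgeR at any one day, and had the largest of its differences at day 21 (log2 fold change = -2.30 ± 0.68 (SE), adjusted p = 0.0519). That difference was called by DESeq2 and by the edgeR 4 computation (adjusted p = 0.0179 and 0.0445), and by edgeR without any one of 11 single libraries. In the mean of the 4 days, where 17.3% of all genes were called lower, all 3 were called lower, by -1.43 ± 0.28 for Cyp2b10, -1.16 ± 0.25 for Cyp2b13, and -0.73 ± 0.12 (SE) for Cyp2b9 on the log2 scale. The Cyp2b13 call of day 3 was lost without any one of WT libraries 5, 25 or HNKO libraries 2, 3, 23, all of that day (adjusted p = 0.0539 to 0.0708). Of the 51-base stretches of Cyp2b13, 26.8% are also present in transcripts elsewhere (Gm45225 and Cyp2b9 above all), as are 10.7% of those of Cyp2b9, so their values may not be fully separate.

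The starts of Cyp2b9 and Cyp2b13 are shown because these 2 genes lie on chromosome 7 with the same sequence just upstream. Over the 100 bases before the annotated start they were identical at all 100 positions (RefSeq, GRCm38.p6, 5′ to 3′ on the strand of the gene, in lower case throughout since no base differs).
Cyp2b9, chr7:26173309-26173408 (+ strand): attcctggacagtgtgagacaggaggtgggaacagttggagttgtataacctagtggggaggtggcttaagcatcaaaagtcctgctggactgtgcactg
Cyp2b13, chr7:26061395-26061494 (+ strand): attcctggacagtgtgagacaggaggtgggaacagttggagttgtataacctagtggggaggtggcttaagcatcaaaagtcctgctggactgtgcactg

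Subfamily 2c was the largest, with 13 members, and 8 of them were called lower in the mean of the 4 days, with none higher by edgeR, against 17.3% lower and 19.2% higher of all genes. Its members oxidize arachidonic acid, retinoids, and, for Cyp2c70, bile acids. The median log2 fold change of the 13 was -0.64, -0.63, -0.43, and -0.60 at days 3, 6, 12, and 21. The 8 were Cyp2c29, Cyp2c37, Cyp2c38, Cyp2c39, Cyp2c40, Cyp2c68, Cyp2c69, and Cyp2c70. Cyp2c23, Cyp2c50, Cyp2c54, Cyp2c55, and Cyp2c67 were not called at any day or in the mean, and their mean log2 fold changes ran from -0.40 (Cyp2c54) to 0.077 (Cyp2c23).

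Cyp2c39, a retinoic acid hydroxylase of modest level (8.99 CPM per kilobase), was called lower at 3 of the 4 days. At day 3 it was at 14.04, 14.9, 15.9, 19.96, and 20.3 CPM in WT livers and 7.95, 8.99, 9.31, 9.57, and 14.7 CPM in HNKO livers. The day 6 values were 13.8, 16.7, 20.01, and 22.6 CPM in WT livers and 4.71, 5.90, 8.54, 10.9, and 12.9 CPM in HNKO livers. One HNKO library of day 3 (library 4, 14.7 CPM) reached the lower WT values, and at day 6 the groups were separate. At day 12 Cyp2c39 was at 16.9, 17.2, 17.97, 18.7, and 19.996 CPM in WT livers and 7.81 to 12.3 CPM (median 10.1) in the 6 HNKO livers. Those of day 21 were 9.57, 11.7, 12.2, 13.1, and 14.8 CPM in WT livers and 4.69, 8.74, and 8.93 CPM in HNKO livers. The groups were separate at both later days. Its differences on the log2 scale were -0.75 ± 0.20 (SE) at day 3 (adjusted p = 0.0282), -1.10 ± 0.21 at day 6 (adjusted p = 0.00093), -0.83 ± 0.19 at day 12 (adjusted p = 0.00871), and -0.72 ± 0.24 at day 21 (adjusted p = 0.0903). The calls at days 6 and 12 held without each single library. The Cyp2c39 call of day 3 was lost without any one of WT libraries 1, 5, 25 or HNKO libraries 2, 3, 23, all of that day (adjusted p = 0.0534 to 0.0847).

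Cyp2c29, an abundant enzyme that responds to CAR, was called lower at days 6, 12, and 21. At day 3 it was at 552, 694, 714, 797, and 849.7 CPM in WT livers and 229, 303, 372, 566, and 832 CPM in HNKO livers. Day 6 gave 723, 809, 859, and 1042 CPM in WT livers and 260.4, 276, 438, 465, and 641 CPM in HNKO livers. At day 3 the HNKO libraries spread from far below the WT range to within it (libraries 4 and 22), and at day 6 all 5 lay below it. At day 12 Cyp2c29 was at 546, 833, 882, 906, and 927 CPM in WT livers and 369.7 to 671 CPM (median 463) in the 6 HNKO livers. Day 21 gave 754, 775, 788, 920.0, and 1017 CPM in WT livers and 238, 337, and 417 CPM in HNKO livers. WT library 16 was low at day 12 (546 CPM), under HNKO libraries 11 and 35, while at day 21 the groups were separate. Its called differences were, on the log2 scale, -1.05 ± 0.26 at day 6 (adjusted p = 0.00757), -0.74 ± 0.24 at day 12 (adjusted p = 0.0487), and -1.36 ± 0.30 (SE) at day 21 (adjusted p = 0.0120). The call at day 6 held without each single library. The Cyp2c29 call of day 12 was lost without any one of WT libraries 14, 15, 33, 34 or HNKO libraries 11, 12, 13, 32, 36, all of that day (adjusted p = 0.0607 to 0.109). It was also lost without any one of 20 of the 27 libraries of other days (libraries 1, 3, 5, 8, 10, 19, 20, 21, 22, 24, 25, 26, 27, 28, 30, 31, 38, 39, 40, 41), with an adjusted p of at most 0.0585. The Cyp2c29 call of day 21 was lost without HNKO library 37 (adjusted p = 0.261).

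Cyp2c70, which hydroxylates bile acids to muricholic acids in mouse liver, was called lower at days 3 and 12. At day 3 it was at 808, 914, 940.2, 959, and 1097 CPM in WT livers and 386, 439, 636, 718, and 842 CPM in HNKO livers. Values of day 6 were 465.7, 587, 613, and 616 CPM in WT livers and 338, 376, 525.9, 554, and 569 CPM in HNKO livers. Of the HNKO libraries, library 4 lay within the WT range at day 3, and libraries 6, 30, and 31 did at day 6. At day 12 Cyp2c70 was at 384, 474, 597, 687, and 726 CPM in WT livers and 315 to 453 CPM (median 375) in the 6 HNKO livers. Values of day 21 were 362, 427, 498, 622, and 669 CPM in WT livers and 296, 309, and 419 CPM in HNKO livers. At these days 3 of 6 HNKO libraries and 1 of 3 lay within the WT range, and the WT level itself was highest at day 3. Its called differences were, on the log2 scale, -0.64 ± 0.19 (SE) at day 3 (adjusted p = 0.0476) and -0.60 ± 0.18 (SE) at day 12 (adjusted p = 0.0395). The Cyp2c70 call of day 3 was lost without any one of WT libraries 1, 5, 24, 25, 26 or HNKO libraries 2, 3, 23, all of that day (adjusted p = 0.0589 to 0.165). It was also lost without any one of 13 of the 28 libraries of other days (libraries 8, 11, 13, 15, 20, 21, 27, 28, 30, 34, 36, 38, 41), with an adjusted p of at most 0.0545. The Cyp2c70 call of day 12 was lost without any one of WT libraries 14, 15, 33 or HNKO libraries 11, 12, 13, 36, all of that day (adjusted p = 0.0603 to 0.119). It was also lost without library 30 of another day (adjusted p = 0.0516).

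Among the other 2c members, Cyp2c37, an arachidonic acid epoxygenase, was at 462 ± 128 CPM (SD, n = 4) in WT and 162 ± 64.1 CPM (SD, n = 5) in HNKO livers at day 6, where it was called lower (log2 fold change = -1.52 ± 0.39 (SE), adjusted p = 0.00945), and this call held without each single library. Cyp2c40, known for higher expression in females, was at 422 ± 71.2 CPM (SD, n = 5) in WT and 189 ± 42.8 CPM (SD, n = 5) in HNKO livers at day 3, with every HNKO library below every WT library (log2 fold change = -1.16 ± 0.34 (SE), adjusted p = 0.0412). The Cyp2c40 call of day 3 was lost without any one of WT libraries 5, 24, 25, 26 or HNKO libraries 2, 3, 23, all of that day (adjusted p = 0.0599 to 0.118). At days 6 and 12 Cyp2c40 was called lower only in alternatives, by DESeq2 (adjusted p = 0.0420 and 0.0444) and with the run of library numbers as a covariate (adjusted p = 0.0470 and 0.0444) among them. Cyp2c69, Cyp2c68, and Cyp2c38 were called lower by edgeR in the mean of the 4 days and at no single day, by -0.95 ± 0.26, -0.39 ± 0.09, and -0.39 ± 0.12 (SE) on the log2 scale. DESeq2 also called Cyp2c68 at day 3 and Cyp2c69 at day 12 (adjusted p = 0.0281 and 0.0420), and the Cyp2c38 call was lost without library 37 (adjusted p = 0.0579). Cyp2c40, Cyp2c67, Cyp2c68, and Cyp2c69 share sequence most, with 59.7%, 52.1%, 42.5%, and 53.8% of their 51-base stretches also present in transcripts elsewhere, so that their separate values are uncertain. The share was 29.3% for Cyp2c37, 4.12% for Cyp2c29, 11.5% for Cyp2c39, and 0% for Cyp2c70.

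**Figure D4:**
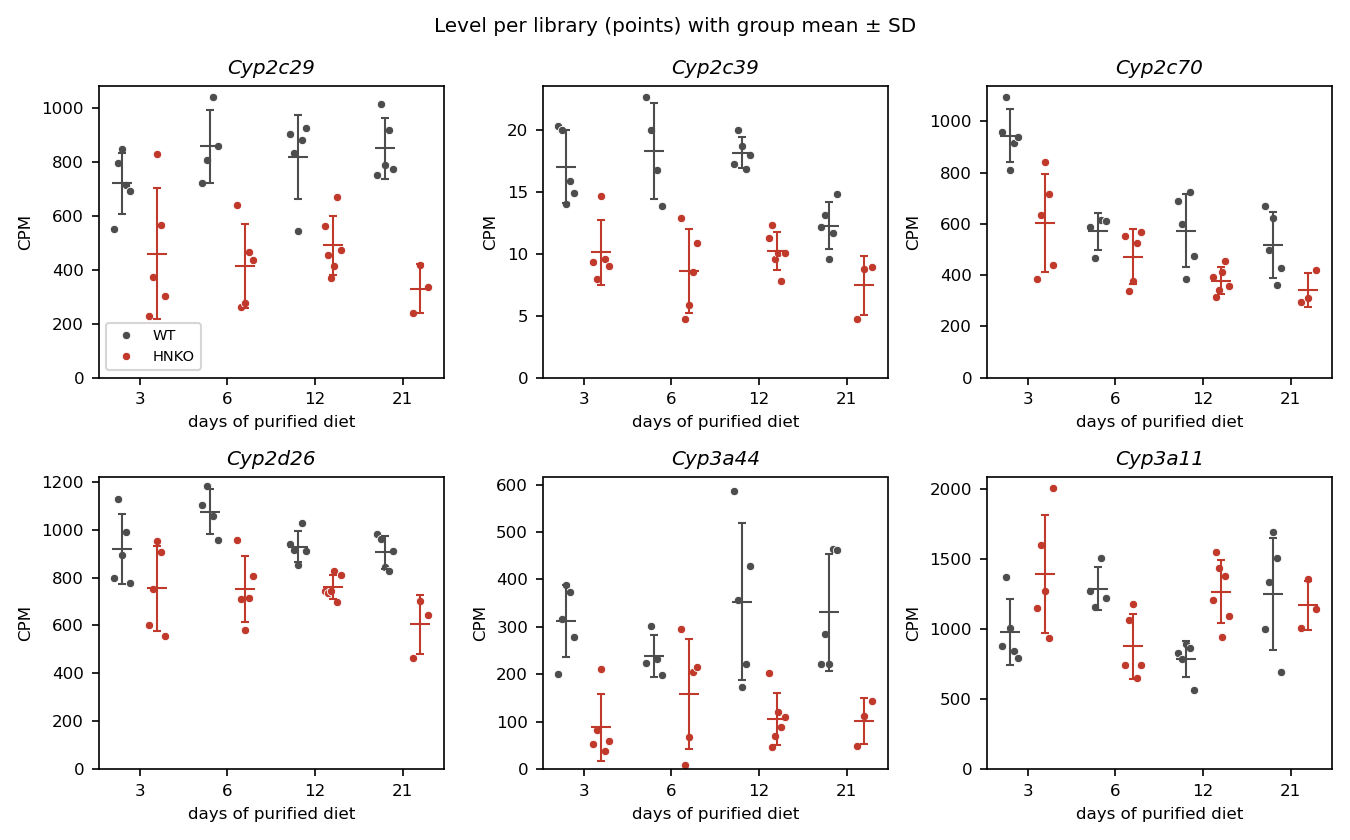
CPM in each library (points) by days of PD and genotype, with the group mean and SD, for the 5 members called on at least 2 days and for Cyp3a11. Cyp2c39 and Cyp2d26 are separate between the genotypes at days 6, 12, and 21, and Cyp3a11 is higher in HNKO livers at day 12, where all HNKO values are above the WT values, and lower in mean at day 6.

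Of the 7 members of subfamily 2d, which hydroxylates steroids and many drugs, 4 were called lower in the mean of the 4 days (Cyp2d10, Cyp2d22, Cyp2d26, and Cyp2d40), against 17.3% of all genes. The Cyp2d10 call was lost without any one of 19 of the 38 libraries (adjusted p up to 0.122), and the Cyp2d40 call without any one of 6 of the 38 libraries (adjusted p up to 0.0675). The median log2 fold change of the 7 was -0.21, smaller than that of subfamilies 2a, 2b, and 2c (-1.07, -1.16, and -0.40), a difference between subfamilies that was not tested. At day 3 Cyp2d26, the most abundant 2d member, was at 776, 800.0, 893, 991, and 1130.1 CPM in WT livers and 556, 604, 751, 907, and 954 CPM in HNKO livers. By day 6 it was at 956, 1059, 1102, and 1182 CPM in WT livers and 581, 711, 714, 807, and 955 CPM in HNKO livers. Its libraries overlapped at day 3 through HNKO libraries 4 and 22, and were separate at day 6 by a small gap between HNKO library 6 and WT library 28. At day 12 Cyp2d26 was at 853, 913, 915, 939, and 1028 CPM in WT livers and 697 to 827 CPM (median 744) in the 6 HNKO livers. By day 21 it was at 826, 846, 909, 963, and 981 CPM in WT livers and 465, 643, and 704 CPM in HNKO livers. The groups were separate at both days. Cyp2d26 was called lower at days 6 (log2 fold change = -0.51 ± 0.14 (SE), adjusted p = 0.0150) and 21 (log2 fold change = -0.58 ± 0.16 (SE), adjusted p = 0.0362). The Cyp2d26 call of day 6 was lost without any one of WT library 10 or HNKO library 29, all of that day (adjusted p = 0.0565 to 0.0888). The Cyp2d26 call of day 21 was lost without any one of WT libraries 19, 20, 41 or HNKO libraries 37, 40, all of that day (adjusted p = 0.0614 to 0.529). It was lost as well with the run of library numbers as a covariate (adjusted p = 0.0521).

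Cyp2d22 was at 222 ± 28.2 CPM (SD, n = 4) in WT and 139.9 ± 30.1 CPM (SD, n = 5) in HNKO livers at day 6 and was called lower (log2 fold change = -0.67 ± 0.14 (SE), adjusted p = 0.00172), which held without each single library. Cyp2d9, a testosterone 16-alpha-hydroxylase known for higher expression in males, was not called by edgeR in the fit of all groups, although its 3 HNKO libraries of day 21 were all above the WT libraries (log2 fold change = 0.75 ± 0.39 (SE), adjusted p = 0.319), and a fit of only the 2 groups of day 21 called it higher (adjusted p = 0.0373). Of the stretches of Cyp2d9, Cyp2d10, and Cyp2d11, 21.3%, 35.1%, and 36.4% are present elsewhere too. Cyp2d11 and Cyp2d12 were under 1 CPM per kilobase in WT liver and were not called.

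Cyp2e1, the one member of its subfamily, carried the largest single share of the P450 RNA. At day 3 it was at 3726, 5397, 5499, 6538, and 9815 CPM in WT livers and 2485, 2521, 2572, 4368, and 4943 CPM in HNKO livers. The level at day 6 was 3960.1, 4168, 7226, and 9099 CPM in WT livers and 2021, 2685, 3859, 4342, and 4537 CPM in HNKO livers. The WT livers themselves differed widely, and HNKO libraries 4 and 22 at day 3 and 6 and 31 at day 6 lay within the WT range. At day 12 Cyp2e1 was at 3218, 4494, 4783, 6426, and 8518 CPM in WT livers and 2571 to 6839 CPM (median 3376) in the 6 HNKO livers. The level at day 21 was 4814, 4908, 5421, 6384, and 6604 CPM in WT livers and 2497, 3960.2, and 5424 CPM in HNKO livers. Overlap was larger at day 12, where 4 of 6 HNKO libraries lay within the WT range. With edgeR no day passed the threshold (log2 fold change of -0.88 to -0.49), while DESeq2 called day 3 (adjusted p = 0.0443), as did edgeR without HNKO library 22, and the mean of the 4 days passed in edgeR (log2 fold change = -0.67 ± 0.16 (SE), adjusted p = 0.00114). Cyp2f2, which oxidizes naphthalene, had -0.23 ± 0.14 (SE) in that mean and was not called (adjusted p = 0.214), while the scarcer Cyp2g1 was called lower (log2 fold change = -0.89 ± 0.30 (SE), adjusted p = 0.0169). That Cyp2g1 call was lost without library 37 (adjusted p = 0.0526).

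The 4 members of subfamily 2j, which make epoxides of arachidonic acid, were all called lower in the mean of the 4 days, as were 17.3% of all genes. The differences were small for Cyp2j5 (-0.29 ± 0.077), Cyp2j6 (-0.20 ± 0.055), and Cyp2j9 (-0.29 ± 0.12, SE) and -0.81 ± 0.30 for the scarce Cyp2j8. The Cyp2j9 call was lost without any one of 24 of the 38 libraries (adjusted p up to 0.0997), and the Cyp2j8 call without any one of 7 of the 35 libraries whose removal kept it in the test (adjusted p up to 0.0716). Cyp2j6 was also called at day 6, at 88.8 ± 8.83 CPM (SD, n = 4) in WT and 66.6 ± 10.8 CPM (SD, n = 5) in HNKO livers (log2 fold change = -0.41 ± 0.11 (SE), adjusted p = 0.0116). The Cyp2j6 call of day 6 was lost without any one of WT library 8 or HNKO library 29, all of that day (adjusted p = 0.0585 to 0.0859). Cyp2u1, a fatty acid hydroxylase, was the member called higher at day 3, at 21.2 ± 3.57 CPM (SD, n = 5) in WT and 39.9 ± 17.4 CPM (SD, n = 5) in HNKO livers (log2 fold change = 0.91 ± 0.25 (SE), adjusted p = 0.0309). It was above 0 at all 4 days and in the mean (log2 fold change = 0.72 ± 0.13 (SE), adjusted p = 4.71e-05). The Cyp2u1 call of day 3 was lost without any one of WT libraries 5, 24, 25, 26 or HNKO libraries 3, 22, all of that day (adjusted p = 0.0534 to 0.0994). Cyp2r1, a vitamin D 25-hydroxylase, was at 6.55 CPM per kilobase in WT livers and had a mean log2 fold change of -0.00346 ± 0.11 (SE). Cyp2t4 lies across Egln2 on the opposite strand, and since the use of strand in the counting is not given in the sources used here, its few counts (median 10.5 per library, beside 1364.5 for Egln2) cannot be told apart from those of Egln2.

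Within family 3, Cyp3a44 and Cyp3a16, known for higher expression in females, were called lower in the mean of the 4 days, as were Cyp3a25 and Cyp3a59, while Cyp3a11, the main drug-oxidizing P450 of its family in mouse liver and a target of PXR, was called higher at 1 day. At day 3, Cyp3a44 was at 201, 279, 317, 374, and 389 CPM in WT livers and 37.4, 51.98, 58.3, 82.98, and 210.1 CPM in HNKO livers. At day 6 it was at 199, 223, 232, and 302 CPM in WT livers and 8.60, 68.02, 205, 214, and 295 CPM in HNKO livers. At day 3 HNKO library 4 alone reached the WT range, and at day 6 the HNKO libraries ran from 8.60 CPM (library 7) up to the WT range, where 3 of them lay. At day 12 Cyp3a44 was at 173, 222, 356, 428, and 586 CPM in WT livers and 46.8 to 203 CPM (median 99.1) in the 6 HNKO livers. At day 21 it was at 222, 222, 284, 462, and 463 CPM in WT livers and 48.5, 112, and 143 CPM in HNKO livers. One HNKO library of day 12 (library 11) lay within the WT range, and at day 21 the groups were separate. Cyp3a44 was called lower at day 3 (log2 fold change = -1.82 ± 0.53 (SE), adjusted p = 0.0388) and at day 12 (log2 fold change = -1.73 ± 0.49 (SE), adjusted p = 0.0276). The Cyp3a44 call of day 3 was lost without any one of WT libraries 5, 24, 25 or HNKO libraries 2, 3, 22, 23, all of that day (adjusted p = 0.0638 to 0.118). The Cyp3a44 call of day 12 was lost without any one of WT libraries 14, 15, 34 or HNKO libraries 12, 13, 35, all of that day (adjusted p = 0.0521 to 0.0700). Cyp3a44 shares 25.6% of its stretches with other transcripts, Cyp3a41a first among them.

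Cyp3a11 was called higher at day 12, at 785 ± 131 CPM (SD, n = 5) in WT and 1266 ± 228 CPM (SD, n = 6) in HNKO livers (log2 fold change = 0.69 ± 0.20 (SE), adjusted p = 0.0316), with every HNKO library above every WT library. At day 6 it was at 1287 ± 154 CPM (SD, n = 4) in WT and 874 ± 230.2 CPM (SD, n = 5) in HNKO livers, and its log2 fold change there did not pass the threshold (-0.56 ± 0.22, SE, adjusted p = 0.0925). At days 3 and 21 it had 0.51 and -0.0937. Its p for a genotype difference that changes with the day was the smallest among the members, with an adjusted p of 0.454. The Cyp3a11 call of day 12 was lost without any one of WT libraries 15, 34 or HNKO libraries 12, 13, all of that day (adjusted p = 0.0637 to 0.0856). Leaving day 6 out of the mean, an alternative chosen after seeing the data, gave 0.37 (adjusted p = 0.0267), where the mean of all 4 days gave 0.14 (adjusted p = 0.351). Without library 23 or 38 the 3-day value did not pass (adjusted p = 0.0506 to 0.0566).

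Cyp3a25 and Cyp3a59, neighbours on chromosome 5, were both called lower at day 21. Cyp3a25 was at 593 ± 74.3 CPM (SD, n = 5) in WT and 301 ± 100.1 CPM (SD, n = 3) in HNKO livers (log2 fold change = -0.98 ± 0.27 (SE), adjusted p = 0.0363), and Cyp3a59 at 45.1 ± 9.26 CPM (SD, n = 5) in WT and 20.4 ± 4.65 CPM (SD, n = 3) in HNKO livers (log2 fold change = -1.15 ± 0.26 (SE), adjusted p = 0.0135). The 2 genes share 24.4% (of Cyp3a25) and 26.02% (of Cyp3a59) of their 51-base stretches, so their values may not be fully separate. The Cyp3a25 call of day 21 was lost without any one of WT libraries 19, 20, 21, 39 or HNKO libraries 37, 38, all of that day (adjusted p = 0.0519 to 0.490). The Cyp3a59 call of day 21 was lost without HNKO library 37 (adjusted p = 0.300). Cyp3a13 and Cyp3a57 were not called at any day or in the mean (0.17 ± 0.13 and -0.28 ± 0.27, SE, for the mean).

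Their starts are shown because the 2 genes are close copies upstream as well. The 100 bases before the annotated starts (RefSeq, GRCm38.p6, 5′ to 3′ on the strand of each gene) were identical at 94 of 100 positions, and capitals mark the positions at which they differ. RefSeq gives 2 starts of Cyp3a25 that are 1 base apart. The window of the other start was identical at 89 of 100 positions to that of Cyp3a57, which was not called, so the likeness is not limited to the genes called.
Cyp3a25, chr5:146009618-146009717 (- strand): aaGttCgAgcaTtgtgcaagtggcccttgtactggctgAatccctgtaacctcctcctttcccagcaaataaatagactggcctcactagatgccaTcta
Cyp3a59, chr5:146079158-146079257 (+ strand): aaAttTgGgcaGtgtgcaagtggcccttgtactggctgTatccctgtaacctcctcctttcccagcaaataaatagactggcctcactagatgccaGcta

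The windows before the starts were also searched for 6 short motifs, since many members moved together. RefSeq starts were found for 42 of the 48 members (44 windows of 250 bases, both strands searched, overlaps between motifs not removed). TATAAA stood in 21 of the 44 windows (47.7%), against 12.4% of 32851 windows of all genes, and AGGTCA, the hexamer bound by many nuclear receptors, in 31.8% against 14.02%. GTTAAT stood in 13.6% against 6.43%, CCAAT in 36.4% against 33.8%, GCGTG, the core bound by AHR, in 11.4% against 28.2%, and TTCNNNGAA, the form bound by STAT5, in 0 of 44 windows against 7.02%. These are shares of letters in windows, many of them near copies of one another. The starts of Cyp2e1 and Cyp2c29 are shown as the most abundant member and a member called at 3 days, with TATAAA in capitals, 31 and 19 bases before the start at its first letter (RefSeq, GRCm38.p6, 5′ to 3′).
Cyp2e1, chr7:140763719-140763818 (+ strand): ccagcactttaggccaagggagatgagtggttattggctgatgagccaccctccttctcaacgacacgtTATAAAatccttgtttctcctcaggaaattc
Cyp2c29, chr19:39286985-39287084 (+ strand): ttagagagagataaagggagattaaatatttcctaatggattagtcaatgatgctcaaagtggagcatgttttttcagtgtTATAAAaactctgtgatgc

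Some members varied widely between mice. Cyp2a22 was nearly absent from 18 of the 38 livers (at most 0.892 CPM) and at 8.88 CPM or more in the other 20, with no value between. Both kinds occurred in each genotype, with 10 low and 9 high WT livers and 8 low and 11 high HNKO livers, and at every day. They were unevenly spread over the library numbers, with 2 low and 8 high WT and 1 low and 7 high HNKO livers among those numbered 1 to 21, and 8 low and 1 high WT and 7 low and 4 high HNKO livers among those numbered 22 to 41. It was not called in the mean of the 4 days (log2 fold change = -1.87 ± 0.82 (SE), adjusted p = 0.0735), but was with all 40 libraries (adjusted p = 0.0462). Within the 2 runs of library numbers its mean log2 CPM was lower in HNKO livers in 4 of 7 comparisons (-2.13 to 1.91). Cyp2a22 shares 19.7% of its 51-base stretches with Cyp2a12. Cyp3a16 ran from 10.8 to 457 CPM over the WT livers of all days and was called lower in the mean of the 4 days (log2 fold change = -2.59 ± 0.51 (SE), adjusted p = 0.000144) but at no single day by edgeR, although its groups were separate at day 21 and DESeq2 called it at days 6, 12, and 21 (adjusted p = 0.0484, 0.0330, and 0.0108). Cyp2s1, expressed mainly in epithelia outside the liver, was at 16.7 CPM in HNKO library 35 of day 12, at 0.225, 0.366, 0.623, 0.984, and 1.65 CPM in the other 5 HNKO livers, and at 0.334, 0.622, 0.713, 0.945, and 1.03 CPM in WT livers of that day, and there the difference missed the threshold in edgeR (log2 fold change = 2.23 ± 0.73 (SE), adjusted p = 0.0512). It passed with DESeq2 and the edgeR 4 computation (adjusted p = 0.0303 and 0.0448) and in edgeR without any one of 9 single libraries. Without library 35 it was 0.088 ± 0.50 (SE, adjusted p = 0.940), so the difference rested on that library.

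**Figure D5:**
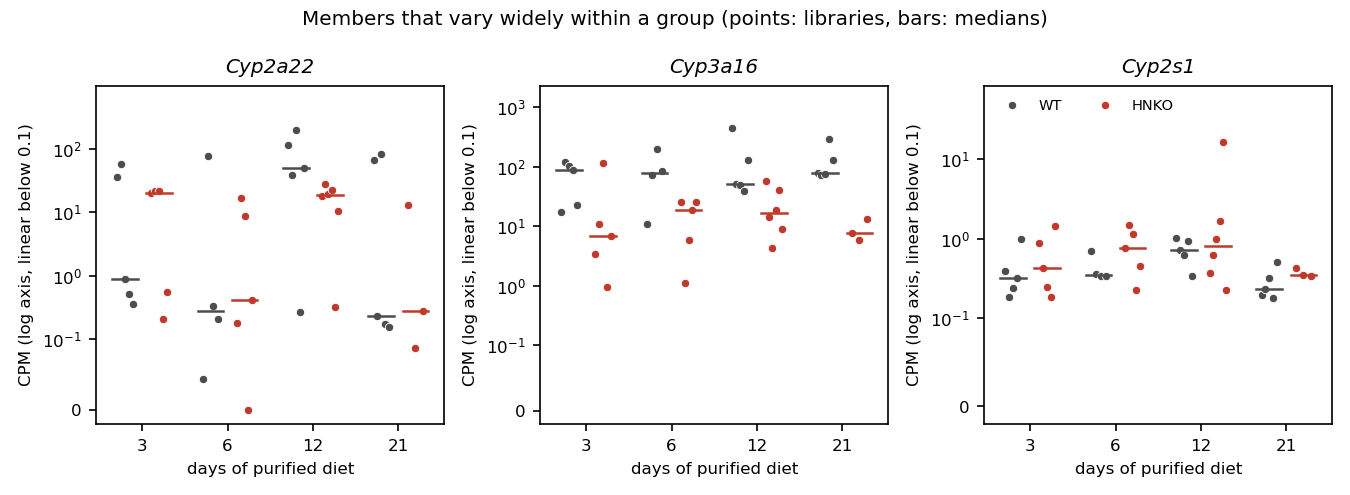
CPM in each library (points, log axis that is linear below 0.1) by days of PD and genotype, with group medians as bars, for Cyp2a22, Cyp3a16, and Cyp2s1. Cyp2a22 values lie either at or below 0.892 or at or above 8.88 CPM in both genotypes, and 1 HNKO liver of day 12 stands at 16.7 CPM for Cyp2s1.

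Genes that work with the P450 enzymes were read in the same test. The list of P450 genes higher in female liver had all 9 of its genes called lower in the mean of the 4 days. Their median log2 fold change was -1.16 (beside -0.00639 for all genes, of which 17.3% were called lower). It holds 7 of the members named above and Cyp3a41a and Cyp3a41b, whose symbols fall outside the rule and of which Cyp3a41a shares sequence with Cyp3a44. These 2 were lower too (log2 fold change = -1.26 ± 0.28 (SE), adjusted p = 0.000668, and log2 fold change = -2.14 ± 0.46 (SE), adjusted p = 0.000407). At single days 3, 1, 2, and 0 of its genes were called lower at days 3, 6, 12, and 21. The list of CAR- and PXR-responsive P450 genes had 3 of 7 called lower in the mean (Cyp2b10, Cyp2c29, and Cyp2c37) and Cyp3a11 called higher at day 12, with a median of -0.40. Membership of these lists is background knowledge and the lists were chosen with results of these data known.

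All 5 genes listed as electron donors or partners of P450 enzymes were called lower in the mean of the 4 days, with a median log2 fold change of -0.39. Por, the reductase that serves every microsomal P450, had log2 fold change = -0.67 ± 0.23 (SE), adjusted p = 0.0237, and was not called by edgeR at any one day. Cyb5b and Pgrmc1, a cytochrome b5 and a heme-binding partner of P450 enzymes, were also called at day 6 (log2 fold change = -0.64 ± 0.19 (SE), adjusted p = 0.0240, and log2 fold change = -0.44 ± 0.12 (SE), adjusted p = 0.0168). Among the 12 genes of heme synthesis and breakdown, 7 were called lower in the mean and 1 higher, against 17.3% and 19.2% of all genes (median -0.16). Cpox, an enzyme of the late heme pathway, was called lower at days 6 and 12 (log2 fold change = -0.72 ± 0.16 (SE), adjusted p = 0.00361, and log2 fold change = -0.68 ± 0.15 (SE), adjusted p = 0.00636). Hmox1, which breaks heme down, was called higher at day 6 (log2 fold change = 1.07 ± 0.24 (SE), adjusted p = 0.00309).

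Of the 12 receptors and liver regulators, 5 were called lower in the mean of the 4 days and none higher by edgeR, against 17.3% and 19.2% of all genes (Nr1i2, Nr1i3, Cebpa, Foxa2, and Ppara; median of the list -0.16). Nr1i3, which encodes CAR, had the largest of these differences (log2 fold change = -0.91 ± 0.15 (SE), adjusted p = 1.73e-05 in the mean, and log2 fold change = -1.21 ± 0.30 (SE), adjusted p = 0.00756 at day 6). Cebpa and Ppara were called lower at day 3 (log2 fold change = -0.57 ± 0.15 (SE), adjusted p = 0.0282, and log2 fold change = -0.64 ± 0.18 (SE), adjusted p = 0.0374). Of the 11 growth hormone signalling genes, 5 were called lower in the mean, against the same shares (Ghr, Stat5a, Stat5b, Cux2, and Trim24; median -0.12). Trim24 was called lower at day 12 (log2 fold change = -0.62 ± 0.14 (SE), adjusted p = 0.00710) and the kinase gene Jak2 higher at day 6 (log2 fold change = 0.29 ± 0.094 (SE), adjusted p = 0.0395).

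Other lists describe the state of the liver in which the P450 genes were measured. Of the 7 pericentral markers outside the P450 genes, 1 was called lower in the mean of the 4 days (Tbx3; median of the list -0.19), a share no higher than the 17.3% of all genes, and of the 7 periportal markers 3 were called lower (Hal, Gls2, and Arg1) and 1 higher (Cdh1; median -0.29). Cdh1, also a gene of bile duct epithelium, was called higher at days 3 and 6 (log2 fold change = 0.76 ± 0.18 (SE), adjusted p = 0.0145, and log2 fold change = 0.89 ± 0.20 (SE), adjusted p = 0.00269). Of the 11 clock genes, 1 was called lower, also below that share (Hlf; median -0.28). All 8 acute phase genes were called higher in the mean of the 4 days, and 3, 8, 7, and 1 of them at days 3, 6, 12, and 21, with a median log2 fold change of 4.12 at day 6. Of all genes 19.2% were called higher in the mean and 2.95%, 8.42%, 4.56%, and 2.21% at these days. The acute phase genes called were Saa1, Saa2, and Lcn2 at day 3, these with Saa3, Orm2, Hp, Hpx, and Itih4 at day 6, all but Itih4 at day 12, and Lcn2 at day 21. The summed level of the acute phase genes was 6249 to 8662 CPM in the WT and 6559 to 24402 CPM in the HNKO libraries, and its part in the P450 differences was not tested.

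The P450 genes of the other families, 24 under the same count rule, leaned the same way. Of them, 2, 7, 1, and 3 were called lower and 0, 2, 1, and 1 higher at days 3, 6, 12, and 21, and 14 lower and 3 higher in the mean, where 17.3% of all genes were called lower and 19.2% higher. At the same days 1.71%, 4.37%, 3.27%, and 0.916% of all genes were called lower and 2.95%, 8.42%, 4.56%, and 2.21% higher, so that the counts of day 12 were near those of all genes. Their median log2 fold change was -0.38, -0.54, -0.27, and -0.22 at the same days, beside -0.54, -0.59, -0.30, and -0.40 for families 1 to 3. A difference between these families and families 1 to 3 was not tested.

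Whether the genotype difference changed over the 4 days was tested directly. No member was called by edgeR for a genotype by day difference, and neither was any other gene (0% of all genes). Of the members, 2 had an unadjusted p under 0.05 in edgeR (Cyp3a11 and Cyp2t4), as had 966 of all genes, and DESeq2 called 0 members and 16 genes. A member called at 1 day and not at another is therefore not shown to differ between them. Within WT livers the level of 2 members changed with the day, Cyp2c70 (adjusted p = 0.00778) and Cyp2j6 (adjusted p = 0.0130), beside 5.84% of all genes. Within HNKO livers 3 did, Cyp2c70 (adjusted p = 0.0269), Cyp2s1 (adjusted p = 0.0176), and Cyp2t4 (adjusted p = 0.0462), beside 7.9%. The day effect of Cyp2s1 rested on HNKO library 35, without which its adjusted p was 0.567. That of Cyp2t4 was lost without any one of 20 of the 38 libraries, and that of Cyp2c70 in HNKO livers without any one of libraries 3, 4, 22, 37, 38 (adjusted p = 0.0599 to 0.107), while both day effects in WT livers held without each single library. The number of members with a day effect was 5 and 4 in WT livers without WT libraries 33 and 41, and 1 in HNKO livers without any one of HNKO libraries 3, 22, and 35. Cyp2c70 fell in WT livers from 944 ± 103 CPM at day 3 to 516 ± 129 CPM (SD) at day 21, and in HNKO livers from 604 ± 191 to 341 ± 67.5 CPM.

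The library numbers fall into 2 runs over the days, 1 to 21 and 22 to 41, with both genotypes at each day except HNKO at day 21, whose remaining libraries are all in the second run. Within the runs, which allow 7 comparisons of HNKO and WT, the mean log2 CPM was lower in HNKO livers in 7 of 7 for Cyp2c29 (-1.39 to -0.68), Cyp2c39 (-1.44 to -0.68), Cyp2d26 (-0.54 to -0.28), Cyp3a44 (-2.88 to -0.58), and Cyp2e1 (-1.27 to -0.31). Cyp1b1, Cyp2u1, and Cyp3a13 were higher in 7 of 7, the last by only 0.00846 to 0.505, and Cyp3a11 was lower in 2 of 7. Other members were lower in 7 of 7 too, among them Cyp2a12 and Cyp2f2. Cyp2a12, Cyp2f2, and Cyp3a13 were not called by edgeR in the fit of all groups, so 7 of 7 does not set the called members apart. The share of all genes with 7 of 7 was not counted. Single libraries moved the daily counts of called members by over 1.5 times. The count of day 3 was 0, 2, and 0 without WT libraries 5, 24, and 25, 1, 0, and 1 without HNKO libraries 2, 3, and 23, and 13 without HNKO library 4, whose summed P450 level was the highest of its group. The number of all genes called at day 3 moved as well, from 945 to 520, 535, and 373, to 331, 443, and 322, and to 1473 in the same order. The count of day 6 was 5 without HNKO library 29, where the number of all genes called fell from 2596 to 1126. The count of day 12 was 3, 2, and 3 without WT libraries 14, 15, and 34, and 3 and 3 without HNKO libraries 12 and 13. The count of day 21 was 2, 3, 3, and 3 without WT libraries 19, 20, 21, and 41, and 0 without HNKO library 37, where only 13 of all genes were called.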

How the data were processed

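Total RNA of whole liver was depleted of rRNA, made into stranded libraries, and sequenced as paired 51-bp reads by the study. The authors aligned reads with STAR 2.7.2b to GRCm38, counted read pairs with both ends aligned on GENCODE M22 genes with featureCounts 1.6.4, and deposited these raw counts as 1 table of genes by libraries, without normalization. The strand setting is not given in the sources used here. Columns were matched to the labels by library number, and groups were taken from genotype and day.

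Genes were filtered by edgeR's rule (minimum count 10, minimum total 15, minimum proportion 0.7), which kept 20297 genes and 99.9% of counts, scaled by TMM, and modelled with a separate mean for each group in edgeR 4.0.16 (quasi-likelihood test, legacy computation, R 4.3.3). Adjusted p-values (Benjamini-Hochberg) cover all tested genes. SEs are those implied by the test statistic. Log2 CPM used a prior count of 2. The code was tested on simulated data. Depth, the spread between mice, and groups of 3 to 6 limit the precision.

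The members and lists were chosen with earlier results of these data known. Named are members called on any day or in the mean of the 4 days, the most abundant of each subfamily, list genes called on any day (1 gene is not reported here), and a few members outside this rule, named after their values were seen (Cyp2a12, Cyp2a22, Cyp2c23, Cyp2c50, Cyp2c54, Cyp2c55, Cyp2c67, Cyp2d9, Cyp2d11, Cyp2d12, Cyp3a13, and Cyp3a57). Gene positions, exon lengths, and shared stretches of 51 bases used GENCODE M21 of the same build, and sequences came from RefSeq (GRCm38.p6). The alternatives were DESeq2 1.42.0, its size factors in edgeR, other filters, all 40 libraries, fits restricted to the libraries of a day, the newer edgeR 4 computation, the 2 runs of library numbers as a covariate, each library left out in turn, and, chosen after seeing the data, means of 3 days and the day effects without each library.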

Additional observations from a re-analysis of the deposited data

Results flagged for a closer look

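Among the members given per library, 49 groups of 4 to 6 livers were searched for 1 liver far from the others, and 3 were found. The groups of different members share livers, and how often the search flags a liver by chance was not tested. Cyp2c39 was at 14.7 CPM in HNKO library 4 of day 3, and at 7.95 to 9.57 CPM in the other 4 HNKO livers. HNKO library 4 also held 210.1 CPM of Cyp3a44, against 37.4 to 82.98 CPM in the others. Cyp2c29 was at 546 CPM in WT library 16 of day 12, and at 833 to 927 CPM in the other 4 WT livers. Without HNKO library 4 the day 3 log2 fold change of Cyp2c39 was -0.93 in place of -0.75, and that of Cyp3a44 was -2.44 in place of -1.82. In the 2 HNKO libraries of day 21 described as Failed QC, which entered no comparison, 12 of the 47 members with a value were below every WT library of that day in both. Of these, 8 were also below in the other HNKO livers (Cyp2c29, Cyp2c39, Cyp2c40, Cyp2d26, Cyp3a16, Cyp3a25, Cyp3a44, and Cyp3a59). In both libraries 3 members were above every WT library. The share of all tested genes separated in this way was not counted for these 2 libraries, so these counts cannot be judged against it. The lower of the 2 values was 5.98 log2 CPM for Cyp2d9 (4.79 to 5.63 in the WT livers), 4.19 for Cyp2r1 (3.71 to 3.96), and 4.18 for Cyp2u1 (3.36 to 4.17). Cyp1b1, the member called higher at day 21, was at -3.76 and 0.482 in libraries 17 and 18, against -1.51 to 0.172 in the WT livers, so that 1 of them lay below and 1 above all of these.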

How the results depend on the processing

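Direction was stable and the threshold was not. Of the 25 calls of a member at 1 day, all kept their direction under every alternative run, and 25 stayed called with DESeq2, 25 with its size factors, 25 with the edgeR 4 computation, 24 with the run of library numbers as a covariate (all but Cyp2d26 at day 21), 19 with no filter beyond 1 count, 18 in a fit of the 2 groups of the day, and 15 with all 40 libraries, while 23 of the 24 that could be fitted did with at least 10 counts in every library. With 1 library of the same day left out, 146 of 238 fits kept the call, and with 1 library of another day 662 of 712 did. Of the 31 calls in the mean of the 4 days, 7 were lost without at least 1 single library (Cyp1a1 without any one of libraries 5, 27, 33, 37 or 40, Cyp2c38 without library 37, Cyp2d10 without any one of 19 libraries, Cyp2d40 without any one of libraries 27, 29, 34, 37, 40 or 41, Cyp2g1 without library 37, Cyp2j8 without any one of libraries 8, 10, 20, 23, 29, 38 or 40, Cyp2j9 without any one of 24 libraries).

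The count of called members was 6, 8, 6, and 5 at days 3, 6, 12, and 21. With all 40 libraries it was 2 at day 3, 3 at day 12, and 9 at day 21, and with DESeq2 10, 10, and 9 at the same days. In a fit of only the 2 groups of the day it was 5 at day 6 and 9 at day 21. The number of all genes called moved too, at day 3 from 945 to 331 with all 40 libraries and 1428 with DESeq2. At day 12 it moved from 1588 to 624 and 2053 with the same alternatives, and at day 6 from 2596 to 1325 in the fit of only the 2 groups. The day effect was called for 1 member in WT with all 40 libraries and 6 with DESeq2, and for 1 in HNKO with at least 10 counts in every library. The cause of these moves was not tested. With single libraries left out the counts ran over 0 to 13, 5 to 12, 2 to 8, and 0 to 7 at the 4 days, 26 to 33 in the mean of the 4 days, 0 to 0 for genotype by day, and, chosen after seeing the data, 2 to 5 and 1 to 4 for the day effect in WT and HNKO. In the mean of the 4 days the count was 25 to 33 under the other alternatives. Means of 3 days, chosen after seeing the data, gave 22 lower and 3 higher without day 6, where Cyp3a11 was added to those higher, and 28 lower and 3 higher without day 21, where Cyp2s1 was (1.23, adjusted p = 0.0439). The Cyp2s1 call was lost without any one of 15 libraries, and without HNKO library 35 of day 12 its value was 0.52 (adjusted p = 0.214). No paired analysis was possible because each library number belongs to 1 mouse of 1 group and no number is shared between groups. Members under 1 CPM per kilobase are the ones that depth limits most.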
